A study of Mus musculus with 6 samples.

Results

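The cytochrome P450 family 4 genes encode enzymes that place a hydroxyl group on the terminal (omega) carbon of fatty acids. The 10 genes described here are Cyp4a10, Cyp4a12a, Cyp4a12b, Cyp4a14, Cyp4a31, Cyp4a32, Cyp4f13, Cyp4f14, Cyp4f15 and Cyp4v3. They were taken as the non-control probes whose accession is paired in RefSeq with one of these mouse symbols, which gave 14 probes, with 3 each for Cyp4a10 and Cyp4a31 and 1 for each of the others. All 14 probes were well above background in the 4 pool pairs in both diets, so all 10 genes were among the 20658 features tested. A feature is a gene, shown by its brightest probe, or a probe without a symbol.

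The livers came from male Apoe-deficient mice on the C57BL/6J background. Lacking apolipoprotein E, these mice accumulate cholesterol-rich lipoproteins in blood, and no group here had intact Apoe. The 10 squalene-fed mice received a purified Western diet with 1% squalene for 11 weeks, set by the labels at about 1 g per kg of mouse, and the 9 Western-fed mice received that diet without squalene. Both diets held 0.15% cholesterol and 20% palm oil, so there was no chow-fed group. Squalene is the hydrocarbon from which cells make cholesterol. Liver RNA was combined into 4 pools per diet, and each 2-colour array carried 1 squalene pool and 1 Western pool. Squalene was in Cy5 in pool pairs 1 and 4 and in Cy3 in pairs 2 and 3. The pool pair is the replicate (n = 4). A ratio is the log2 of squalene over Western, and a level is the log2 intensity of a pool's channel after normalisation. In bulk liver RNA, fewer cells of a type and less RNA per cell cannot be told apart.

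Omega-hydroxylation is the opening step of a side route of fatty acid breakdown: the omega-hydroxy acid is oxidised to a dicarboxylic acid, which peroxisomes then shorten. In rodent liver, Cyp4a10 and Cyp4a14 are known targets of PPARa, the nuclear receptor that fatty acids and fibrates activate, and they are known to rise in fasting. Cyp4a12a is known as a male-biased, androgen-dependent enzyme that converts arachidonic acid to 20-HETE. Mouse Cyp4f enzymes act on leukotrienes and other long-chain substrates, and Cyp4v3 is the mouse counterpart of CYP4V2, the gene mutated in human Bietti crystalline dystrophy.

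RefSeq's promoter table (build GRCm38.p6, 250 bases before to 50 bases after the start site) held 5 of the 10 genes. Cyp4a32, at chr4:115600688-115600987 on the plus strand, is printed because it is the single entry among the Cyp4a genes, whose levels varied most between pools. Capitals mark the stretch closest to a direct repeat of AGGTCA with 1 base between the copies, the element that PPARa with its partner RXR is known to bind; it starts 97 bases before the start site, is read on the minus strand and has 3 mismatches.
Cyp4a32: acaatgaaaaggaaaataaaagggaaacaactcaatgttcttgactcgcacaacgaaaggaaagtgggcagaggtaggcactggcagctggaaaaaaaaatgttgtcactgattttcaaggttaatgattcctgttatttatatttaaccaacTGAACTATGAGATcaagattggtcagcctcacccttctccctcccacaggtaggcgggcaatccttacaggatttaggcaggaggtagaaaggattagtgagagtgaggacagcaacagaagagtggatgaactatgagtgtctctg
Searched on both strands, AGGTCA itself was in none of the promoters of Cyp4a32, Cyp4f13, Cyp4f14, Cyp4f15 and Cyp4v3, against 16.3% of all 32851 promoters in the table. The closest stretch to the spaced repeat had 3 mismatches in Cyp4a32 and Cyp4v3, 4 in Cyp4f14 and Cyp4f15 and 5 in Cyp4f13, and 24.6% of all promoters held a stretch with at most 3. That these letters are not in a window of 300 bases says only that.

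The study asked how squalene in the diet changes gene expression in these livers. No Cyp4 gene passed the test for a difference between the diets. In limma's linear model with Benjamini-Hochberg adjustment over all features, 0 of the 10 passed an adjusted p of 0.05, as did 0 of 20658 features (0%). At an unadjusted p of 0.05, 0 of the 10 were higher with squalene, against 1.05% of all features, and 0 were lower, against 1.42%. No Cyp4 gene had a ratio above 0 in all 4 pairs (3.34% of features) or below 0 in all 4 (3.04%). No gene had every squalene pool above every Western pool either (0.378% of features). The mean ratios ran between -0.56 for Cyp4a14 and 0.06 for Cyp4f13, and all had an adjusted p of 0.9999. The median over the 10 genes was -0.07, with 2 above 0, beside a median of 0.0028 over all features.

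For several of these genes the pool pairs differed widely from each other. The SD of the ratio between pairs had a median of 0.60 over the 10 genes, beside 0.16 over all features and 0.19 over the 4364 features at least as bright as the dimmest of the Cyp4 genes. The dye orientation adds to that spread, so it was also taken between pairs of the same orientation, where the median was 0.46 over the 10 genes and 0.12 over all features. The median ratio over the 10 genes was -0.12 in pair 1, 0.67 in pair 2, 0.04 in pair 3 and -0.30 in pair 4.

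**Figure D1:**
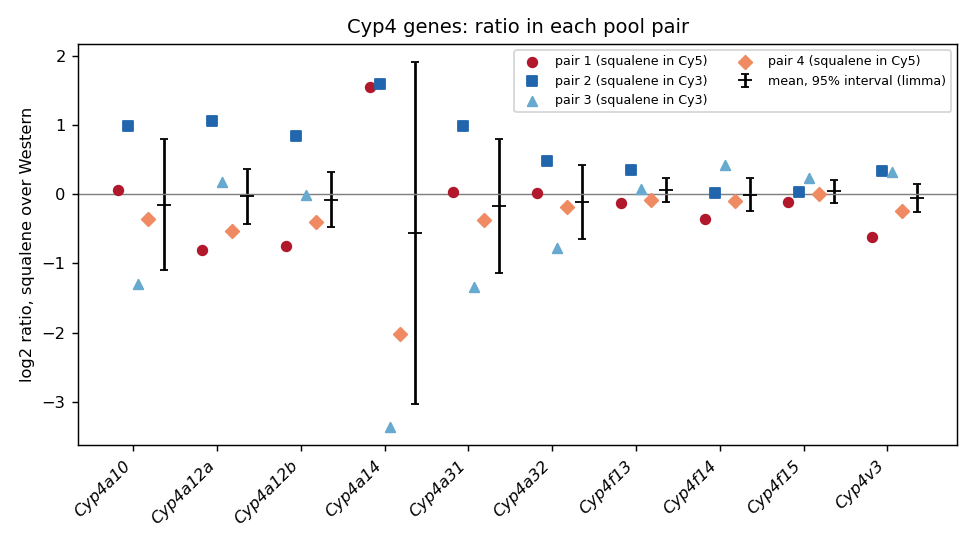
Log2 ratio of squalene over Western for each Cyp4 gene. Coloured points are the 4 pool pairs, and the black bar is limma's mean with its 95% interval. The interval holds 0 for all 10 genes, and Cyp4a14 runs between -3.37 and 1.59.

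Cyp4a14, a PPARa target whose enzyme hydroxylates medium-chain fatty acids, had the largest SD of the ratio between pool pairs of all features tested. Its level was 15.79, 14.14, 12.62 and 13.53 in squalene pools 1 to 4, against 14.24, 12.55, 15.99 and 15.54 in Western pools 1 to 4. Both diets had pools near either end of this range, and the groups overlapped almost completely. The lowest and the highest pool, both Western, differed by 3.44 on the log2 scale, or 10.9-fold, a range that ranked 5 among all features. Its ratio was 1.55 in pair 1 and 1.59 in pair 2, and -3.37 in pair 3 and -2.02 in pair 4. Pairs 1 and 2 were thus higher with squalene and pairs 3 and 4 lower, and each sign came once from either dye orientation. The mean ratio was -0.56 with an SE of 0.96 and an SD of 2.52 between pairs (n = 4), and limma's 95% interval ran from -3.03 to 1.91. Without pair 2 the ratio was -1.80 and without pair 3 it was 0.68, neither of which passed the adjusted threshold.

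In its SD between pairs, Cyp4a14 ranked 1 of 20658 features, and it also ranked 1 between pairs of the same dye orientation, at 3.05. Fgf21, a fasting hormone of the liver and itself a PPARa target, came next at 2.13. Fgf21 is named here after its values were seen. The repeat arrays gave the Cyp4a14 ratio closely: 1.62 on slide 1 and 1.48 on slide 2 in pair 1, and 1.62 on slide 1 and 1.56 on slide 2 in pair 2. On slide 2 alone, which held all pairs, the mean was -0.59.

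**Figure D2:**
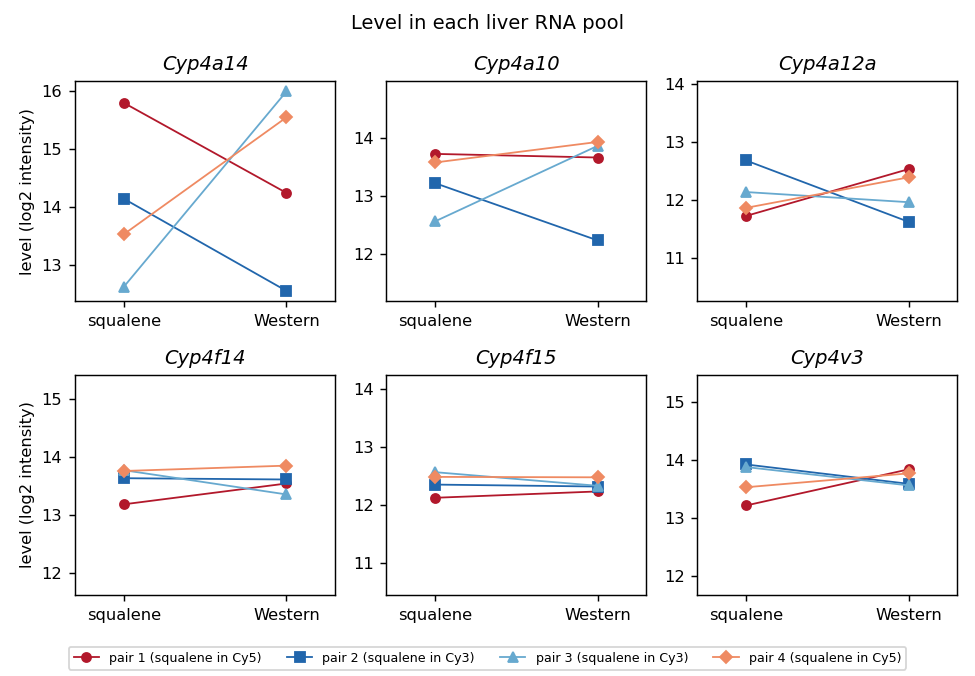
Level (log2 intensity) of 6 Cyp4 genes in each liver RNA pool, squalene on the left and Western on the right, with a line for each pool pair and axes of equal span. The Cyp4a14 lines cross, since pairs 1 and 2 were higher and pairs 3 and 4 lower with squalene, while the Cyp4f15 levels all lie between 12.13 and 12.57.

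Cyp4a10, the other well-known PPARa target of the group and a lauric acid omega-hydroxylase, showed the same kind of spread on a smaller scale. Its level was 13.73, 13.22, 12.56 and 13.58 in squalene pools 1 to 4, against 13.67, 12.24, 13.87 and 13.93 in Western pools 1 to 4. Western pool 2 was the lowest of all 8, and each of the other Western pools lay above at least 3 squalene pools. Its ratio was 0.06, 0.99, -1.30 and -0.35 in pairs 1 to 4, with a mean of -0.15 (SE 0.37, SD 0.95, n = 4). The other 2 probes of Cyp4a10 gave mean ratios of -0.17 and -0.13, each with pairs 1 and 2 above 0 and pairs 3 and 4 below. Its mean depended on the pair left out: it was -0.72 without pair 2 and 0.42 without pair 3, and no setting brought its adjusted p under 0.4735.

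Cyp4a31 and Cyp4a32 are close relatives of Cyp4a10 in mouse, and their transcripts may share signal with its probes. Cyp4a31 had levels of 13.63, 13.21, 12.52 and 13.48 in squalene pools 1 to 4, against 13.59, 12.22, 13.86 and 13.85 in Western pools. That is nearly the Cyp4a10 pattern, again with Western pool 2 lowest. Its mean ratio was -0.17 (SE 0.38, SD 0.97, n = 4), and its other 2 probes gave -0.06 and -0.13. Cyp4a32 levels were 11.51, 11.10, 10.91 and 11.67 in squalene pools 1 to 4, against 11.50, 10.61, 11.68 and 11.85 in Western pools. The order of its pools was similar with a narrower range, and its mean ratio was -0.11 (SE 0.21, SD 0.52, n = 4). Between pairs of the same orientation, the SD ranked 41 of 20658 for Cyp4a31, 46 for Cyp4a10 and 347 for Cyp4a32.

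**Figure D3:**
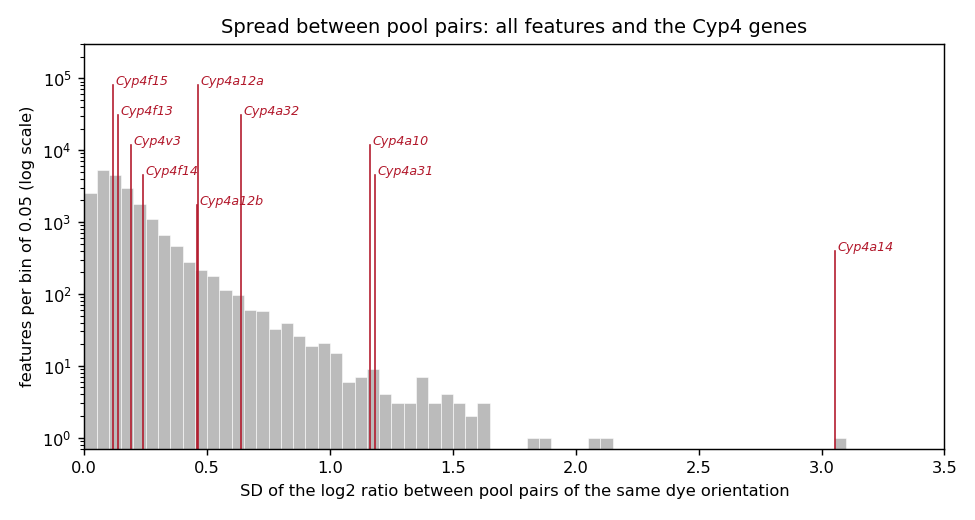
Histogram of the SD of the log2 ratio between pool pairs of the same dye orientation, for 20658 features (grey, log axis, bins of 0.05), with each Cyp4 gene marked in red. Cyp4a14 lies at the far right at 3.05 and Cyp4a10 and Cyp4a31 near 1.16 and 1.18, while Cyp4f13, Cyp4f15 and Cyp4v3 lie within the bulk of features.

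The male-biased Cyp4a12a and Cyp4a12b, near-identical genes whose probes may also share signal, varied mainly with the dye. Cyp4a12a had levels of 11.73, 12.69, 12.14 and 11.87 in squalene pools 1 to 4, against 12.54, 11.63, 11.97 and 12.39 in Western pools. Every pool labelled with Cy3, whichever its diet, lay above every pool labelled with Cy5, which was so for 3.92% of all features. Its ratio averaged -0.67 in the pairs with squalene in Cy5 and 0.62 in those with squalene in Cy3, and the mean over the orientations was -0.03 (SE 0.16, SD 0.83, n = 4). Cyp4a12b had levels of 12.26, 13.09, 12.54 and 12.30 in squalene pools 1 to 4, against 13.01, 12.24, 12.54 and 12.71 in Western pools. The same split by dye was present but incomplete, since Western pool 3 in Cy5 reached squalene pool 3 in Cy3. Its mean ratio was -0.08 (SE 0.15, SD 0.69, n = 4). After each dye's mean was subtracted, the pools of Cyp4a12a still spanned 0.54 on the log2 scale.

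The Cyp4f genes were steadier than Cyp4a10, Cyp4a14, Cyp4a31 and Cyp4a32. After each dye's mean was subtracted, the pools of Cyp4f14 spanned 0.57, close to the 0.54 of Cyp4a12a. Cyp4f14, which in mouse acts on leukotriene B4 and on vitamin E, had levels of 13.18, 13.63, 13.77 and 13.75 in squalene pools 1 to 4, against 13.54, 13.61, 13.35 and 13.85 in Western pools. The groups overlapped, the lowest pool being a squalene pool and the highest a Western pool. Its mean ratio was -0.0029 (SE 0.09, SD 0.32, n = 4), with a 95% interval from -0.24 to 0.23. Cyp4f13 levels ran between 10.83 and 11.33 in squalene pools and between 10.96 and 11.06 in Western pools, with a mean ratio of 0.06 (SE 0.07, SD 0.21, n = 4). Cyp4f15 levels ran between 12.13 and 12.57 in squalene pools and between 12.24 and 12.48 in Western pools, with a mean ratio of 0.04 (SE 0.06, SD 0.14, n = 4). The Western pools lay inside the squalene range for both genes. For Cyp4f15, the repeat arrays of pair 1 differed by 0.18, more than its SD between pairs.

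Cyp4v3 had levels of 13.21, 13.92, 13.87 and 13.53 in squalene pools 1 to 4, against 13.83, 13.58, 13.56 and 13.77 in Western pools. Like Cyp4a12a, it was higher in every Cy3 pool than in every Cy5 pool. Its ratio averaged -0.43 with squalene in Cy5 and 0.33 with squalene in Cy3, and -0.05 over both (SE 0.08, SD 0.46, n = 4). Limma's 95% interval of that mean ran from -0.26 to 0.15. Without the dye term in the model, the SE was 0.17.

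Repeat hybridisations of the same pools give the spread of the array step alone. The ratios of the 10 genes differed between slides by a median of 0.09 in pair 1 and 0.06 in pair 2, and by at most 0.18 and 0.19. For Cyp4a14, Cyp4a10 and Cyp4a31, the SD between pairs was several times that. The repeat arrays used the same RNA pools, so differences between animals, pooling and RNA extraction are all part of the spread between pairs and cannot be told apart. Over all features, the ratios of repeat arrays correlated at r of 0.8474 in pair 1 and 0.8787 in pair 2. Between pairs of the same orientation r was 0.08 (pairs 1 and 4) and 0.16 (pairs 2 and 3), and between orientations it went down to -0.43 (pairs 1 and 3).

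Several Cyp4 genes varied together across the 8 pools, once the mean of each dye channel was subtracted. Of 45 gene pairs, 6 had an adjusted p under 0.05 (exact two-sided permutation within dye, 576 arrangements, Benjamini-Hochberg over the 45). In 4 of these the genes are close relatives, whose probes may share signal: Cyp4a10 with Cyp4a31 (r = 0.998), Cyp4a10 with Cyp4a32 (r = 0.967), Cyp4a31 with Cyp4a32 (r = 0.958) and Cyp4a12a with Cyp4a12b (r = 0.939). Cyp4a14 varied with Cyp4a31 (r = 0.889) and with Cyp4a10. For Cyp4a10 with Cyp4a14, the levels had r = 0.877 and Spearman's rho = 0.952, with an exact permutation p of 0.0017 for r, the smallest the arrangements can give, and an adjusted p of 0.0195. Without the 2 pools farthest from the median of Cyp4a10, r was 0.67. The 2 pools of an array were normalised together, so the 8 levels are not fully separate measurements. Cyp4f14 with Cyp4f15 had r = 0.855 and an adjusted p of 0.0893 by the same exact test.

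**Figure D4:**
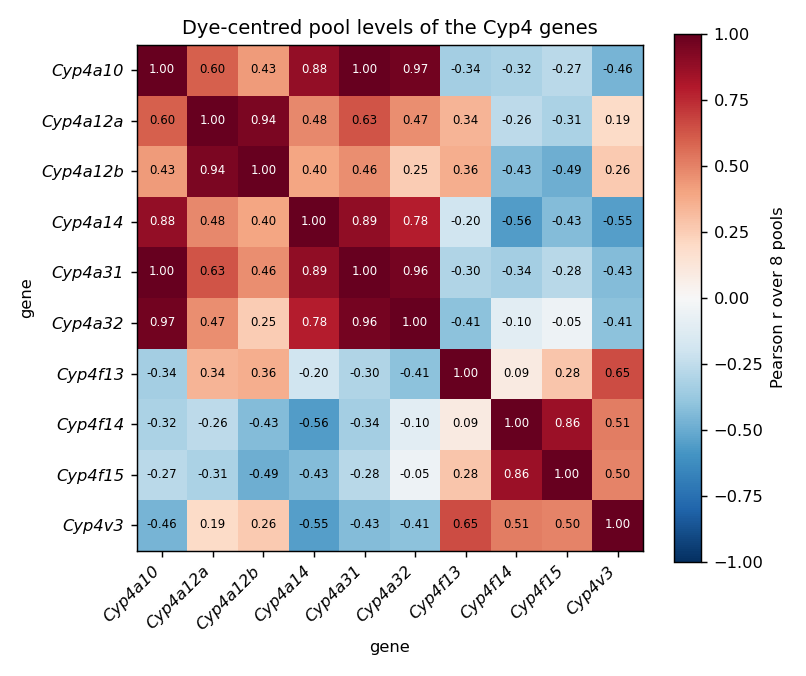
Pearson r between the levels of each pair of Cyp4 genes over 8 liver RNA pools, with the mean of each dye channel subtracted (red above 0, blue below 0). Cyp4a10, Cyp4a14, Cyp4a31 and Cyp4a32 form a red block, and Cyp4a12a with Cyp4a12b reaches 0.94.

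Among 13301 features with a symbol, the genes whose dye-centred levels were most like the mean of Cyp4a10 and Cyp4a14 were Lbp (r = 0.995), Pcolce2 (0.990), Ehhadh (0.984), Gadd45b (0.974) and Rab32 (0.974). These r describe 8 pools and were chosen as the highest, so they carry no p. Ehhadh is the peroxisomal bifunctional enzyme that shortens the dicarboxylic acids made after omega-hydroxylation. Its level was 12.57, 12.43, 11.97 and 12.29 in squalene pools 1 to 4, against 12.39, 11.89, 12.70 and 12.59 in Western pools. As for Cyp4a10, Western pool 2 was lowest and Western pools 3 and 4 were highest. Lbp, the lipopolysaccharide-binding protein secreted by liver, had levels of 12.31, 11.99, 11.73 and 12.04 in squalene pools 1 to 4, against 12.10, 11.80, 12.36 and 12.22 in Western pools. Its lowest pool was squalene pool 3. Between the diets, these 5 genes had mean ratios between -0.11 and -0.0082, each with an adjusted p of 0.9999 in limma. The genes most like Cyp4a12a were Kctd14 (r = 0.980), Kdm5b (0.972), a histone demethylase, Gigyf2 (0.956), Baat (0.945), which joins bile acids to amino acids, and 1700073E17Rik (0.942).

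**Figure D5:**
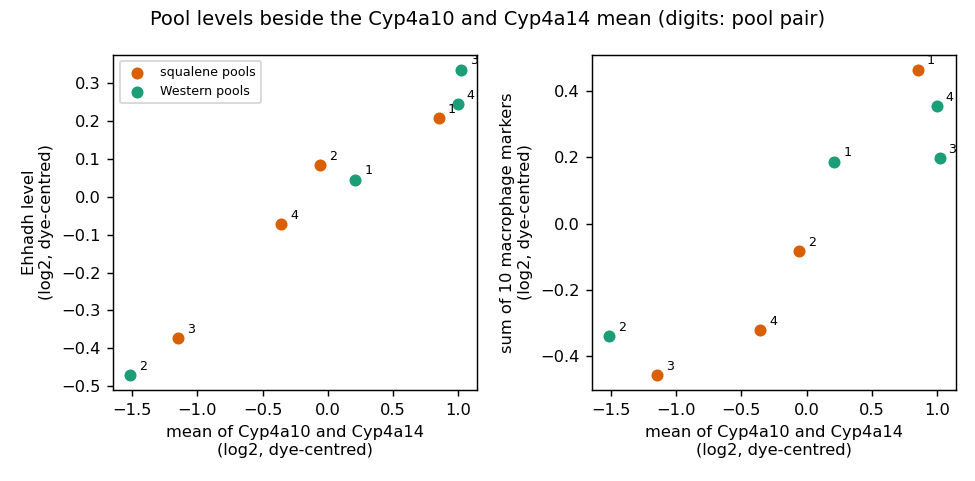
Dye-centred level of Ehhadh (left) and dye-centred log2 of the summed intensities of 10 Kupffer cell and macrophage markers (right) against the mean of Cyp4a10 and Cyp4a14. Points are 4 squalene pools (orange) and 4 Western pools (green), each labelled with its pool pair. Both diets have pools at the low and at the high end of each axis.

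Known PPARa targets gave no adjusted call between the diets. Of 43 measured, 0 passed the adjusted threshold in limma. At an unadjusted p of 0.05, 0 were higher, against 1.05% of all features, and 2 were lower, against 1.42%. The 2 lower at that threshold were Txnip, which binds thioredoxin (ratio -0.31, SE 0.08), and Pdk4, the kinase that shuts off pyruvate oxidation in fasting (ratio -0.57, SE 0.16). Each was below 0 in 2 of 4 pairs, pairs 2 and 3, which had squalene in Cy3. Acaa1b (-0.16) and Decr2 (0.23) came next, and the median ratio was -0.02. Across pools, 10 of the 43 (23.3%) had r above 0.7 with the mean of Cyp4a10 and Cyp4a14, against 9.64% of all features with a symbol. The share was also 20% of the 15 regulators and 25% of 4 further Cyp4 genes described below. In the remaining gene lists it ran from 0% to 11.1%. While 3 of the 15 regulators had r above 0.7, their median r was -0.07. The regulators Ppara, Rxra and Med1, named after their values were seen, had r of -0.72, -0.80 and -0.86. Named after their values were seen, the 10 PPARa targets include Ehhadh, Crot, a peroxisomal carnitine acyltransferase, Plin2, a lipid droplet coat protein, Fgf21 and Cd36, a fatty acid transporter. Other PPARa targets, also named after their values were seen, had r below 0, such as -0.71 for Angptl4, an inhibitor of lipoprotein lipase, and -0.69 for Cpt1a, which admits fatty acids to mitochondria. With Cyp4a12a, 3 of the 43 PPARa targets (6.98%) had r above 0.7, against 3.32% of all features with a symbol.

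The other steps around the Cyp4 enzymes gave no adjusted call in limma. Of 23 genes acting after omega-hydroxylation, 0 passed in either direction at an unadjusted p of 0.05, against 2.47% of all features. Among them Adh4, an alcohol dehydrogenase, had the smallest p (ratio -0.22, SE 0.11). Of 5 genes for electron donors and heme supply, 0 passed, with Por, the reductase that feeds electrons to P450 enzymes, at 0.19 (SE 0.16). Of 9 arachidonate partners, 0 passed, and Ephx2, the soluble epoxide hydrolase, was at -0.13 (SE 0.08). Of 15 regulators, 1 was higher at an unadjusted p of 0.05, against 1.05% of all features. It was Bcl6, a transcriptional repressor, with ratios of 0.28, 0.52, 2.74 and 1.50 in pairs 1 to 4 (mean 1.26, SE 0.40, limma's unadjusted p = 0.026, adjusted p = 0.9999). The Bcl6 ratio was lowest in pairs 1 and 2, where Cyp4a14 was higher with squalene, and highest in pairs 3 and 4, where Cyp4a14 was lower. Over the pools, Bcl6 had r of -0.62 with the mean of Cyp4a10 and Cyp4a14, smaller in size than for Ppara, Rxra and Med1. A link between Bcl6 and these genes was not tested.

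Sex-biased liver genes were set beside Cyp4a12a. Of 18 male-biased genes, 0 passed an unadjusted p of 0.05, against 2.47% of all features. Among them Ugt2b1 had the smallest p (ratio 0.18, SE 0.14). Of 10 female-biased genes, 2 were higher at an unadjusted p of 0.05: Cyp2b9 (ratio 1.46, SE 0.19) and Cyp3a16 (ratio 0.80, SE 0.09), each above 0 in all 4 pairs and neither past the adjusted threshold. Over all features, 1.05% were higher at that unadjusted p and 3.34% were above 0 in all 4 pairs. Of the 18 male-biased genes, 1 had r above 0.7 with Cyp4a12a over the pools (5.56%), against 3.32% of all features with a symbol. With the mean of Cyp4a10 and Cyp4a14, the male-biased genes had a median r of -0.65, beside 0.0075 for all features with a symbol. The 5 genes for electron donors and heme supply had a median r of -0.66, so the low value was not particular to male-biased genes. Of the 18 male-biased genes, 1 had r above 0.7 with the mean of Cyp4a10 and Cyp4a14 (5.56%), against 9.64% of all features with a symbol.

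The array held 12 further Cyp4 genes, of which 4 passed the filter on dim signal. Cyp4f18, known in mouse as the leukotriene B4 hydroxylase of neutrophils, had ratios of 0.46, -0.66, -0.70 and -0.17 in pairs 1 to 4 (mean -0.27, SE 0.11, limma's unadjusted p = 0.061). Cyp4f17 was at 0.08, Cyp4f16 at 0.01 and Cyp4b1 at -0.0068. The remaining 8, among them Cyp4x1 and Cyp4a29, were well above background in at most 2 pairs.

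Markers of liver cell types were set beside these results. Each sum is the log2 of the markers' added intensities, so the brightest markers weigh most. The summed level of 10 of 10 measured hepatocyte markers lay between 19.71 and 20.06 in squalene pools and between 19.67 and 20.00 in Western pools. Kidney tubule, the other main site of Cyp4a expression, had 1 of 5 markers measured, Lrp2, while Kap, Slc34a1, Slc5a2 and Umod did not pass the filter. The sum of 10 of 11 Kupffer cell and macrophage markers was 17.02, 16.46, 16.09 and 16.23 in squalene pools 1 to 4, against 16.73, 16.22, 16.75 and 16.90 in Western pools. Cd5l was the brightest of these markers (14.93 to 15.77 in squalene pools, 15.27 to 15.80 in Western pools). Marco had the largest SD of the ratio between pairs (1.39). Over the 8 dye-centred pools the macrophage sum moved with the mean of Cyp4a10 and Cyp4a14 (r = 0.911, rho = 0.881, exact permutation p = 0.012 for r and 0.021 for rho). Whether the 10 markers moved alike was not tested. The adjusted p for r over 12 marker lists was 0.0556, as it was for the next 2 lists, and r was 0.88 without the 2 pools farthest from the median. The sum of 4 neutrophil markers (10.97 to 11.94 in squalene pools, 11.31 to 11.84 in Western pools) gave r = 0.865, rho = 0.810 and exact permutation p of 0.0052 and 0.024, and r was 0.78 without those 2 pools. The sum of 6 endothelial markers (14.12 to 14.37 in squalene pools, 14.24 to 14.35 in Western pools) gave r = 0.810, rho = 0.571 and exact permutation p of 0.014 and 0.16, and r fell to 0.46 without those 2 pools. Hepatocyte markers gave r = 0.281. The part of these cells in the Cyp4a spread was not tested. At an unadjusted p of 0.05, 4 of 8 lipid-associated macrophage, 4 of 8 stellate cell and 3 of 5 red cell markers were lower with squalene. So were 1 of 2 adipocyte and 1 of 2 pancreas markers, while 1 of 6 lymphocyte markers was higher. Over all features, 1.42% were lower and 1.05% higher at that threshold. None of these markers was past the adjusted threshold in limma. Each of the lower markers was below 0 in pairs 2 and 3, with squalene in Cy3, and above 0 in pair 1 or pair 4.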

How the data were processed

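Liver RNA pools of both diets were hybridised on 6 two-colour Agilent arrays, 4 pool pairs with pairs 1 and 2 on 2 arrays each, from 200 ng of RNA. Per the file headers, Agilent Feature Extraction 10.7.3.1 (10.7 in the submitters' processing notes) read red and green median intensity, of the spot and of its surround, from each array. Per the file headers, it also gave processed intensity (background removed, dyes balanced), the log10 ratio of Cy5 to Cy3, and flags for control, outlying and detected spots. The authors' deposited value table, handled as a score because its scale is unstated, matched log10 of squalene over Western from raw median signals on 99.932% to 99.938% of spots (tolerance 0.001), after 2 implausible cells in each pair 1 column were dropped. Its column medians were 0.254 and 0.27 (pair 1), -0.217 and -0.257 (pair 2), -0.27 (pair 3) and 0.259 (pair 4).

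Analysis used limma 3.58.1 under R 4.3.3. Median signals stood in for mean signals, which the planned correction named and the files used here do not hold. Background was removed by normexp (offset 50), dyes were balanced by loess within arrays, and repeat spots and repeat arrays were averaged. Probes well above background in at least 3 pairs in at least 1 diet were kept (26853 of 55681). RefSeq accessions named 26762 probes, and the brightest probe stood for a gene. The limma model had a term for dye and a term for squalene, with 2 residual and 3.04 prior degrees of freedom. Pool levels are each channel's log2 intensity once loess and then Aquantile were applied. Detected spots made up 48.67% to 54.16% of a channel, and 0 were saturated. The number of pool pairs limits the precision, and the smallest adjusted p over all features was 0.1581. In limma 510 features had an unadjusted p under 0.05, where 1032.9 would be expected with no difference at all. Why the count fell short of that was not tested. It ran from 182 of 20656 features with the deposited table to 1309 of 20658 without pair 2. Nothing in the labels says which mice were in which pool, so p-values measure the spread between these pools.

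The genes and the lists were chosen with earlier results of these data known. Named genes are the 10 Cyp4 genes and up to 4 per pathway list by smallest unadjusted p. Added to them are the 5 most like Cyp4a10 with Cyp4a14 and the 5 most like Cyp4a12a. Crot, Plin2, Fgf21, Cd36, Angptl4, Cpt1a, Ppara, Rxra, Med1, Cd5l, Marco, Cyp2b10 and Cyp2c55 fall outside that rule and were named after their values were seen. Correlations and their permutations within dye were added after the data were seen. Alternatives covered background correction, normalisation, the filter, the dye term, the choice of probe, slide and repeat array, the variance model, the deposited table and leaving out each pair. Probe sequences were not used here, so shared signal between near-identical genes could not be measured.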

Additional observations from a re-analysis of the deposited data

Results flagged for a closer look

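In Western pool 2 the Cyp4a10 level was 12.24, far below the other Western pools at 13.67, 13.87 and 13.93. The Cyp4a31 level in the same pool was 12.22, against 13.59, 13.86 and 13.85 in the other Western pools. Each gap passed Dixon's 95% critical value for 4 samples. Chance flags about 1 in 20 groups, and 2 of 30 groups were so marked here, both in 1 pool and for genes that are close relatives. That pool's Cyp4a14 level, 12.55, was also the lowest of all 8.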

How the results depend on the processing

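The count of Cyp4 genes past the adjusted threshold was 0 under all 15 settings. At an unadjusted p of 0.05 it was 0 except without pair 2 or pair 3. Without pair 2, 5 were lower with squalene (Cyp4a10, Cyp4a12a, Cyp4a12b, Cyp4a31 and Cyp4a32), beside 1309 of 20658 features (6.34%) in either direction. Without pair 3, 2 were higher (Cyp4a10 and Cyp4a31), beside 872 features (4.22%). Over all features, the count past the adjusted threshold was 0 in the fit reported, 2 with median centring in place of loess (Cyp2b10 and Cyp2c55) and 8 with the deposited table; of the pathway lists, the deposited table called 2 genes (Cyp2b9 and Cyp3a16). Cyp4f14, whose ratio was -0.0029, was 0.014 with median centring and 0.016 with the deposited table. The cause was not tested. Leaving out each pair in turn gave ratios from -0.72 to 0.42 for Cyp4a10, -0.25 to 0.20 for Cyp4a12a, -0.29 to 0.14 for Cyp4a12b, -1.80 to 0.68 for Cyp4a14, -0.75 to 0.41 for Cyp4a31, -0.43 to 0.20 for Cyp4a32, -0.0099 to 0.12 for Cyp4f13, -0.10 to 0.10 for Cyp4f14, -0.0087 to 0.092 for Cyp4f15 and -0.15 to 0.043 for Cyp4v3. The median over the 10 genes ran from -0.27 without pair 2 to 0.17 without pair 3. Of 150 single-gene ratios over the settings, 16 had the opposite sign. Each value already is a ratio within a pool pair, so the reported fit is paired and no separate block was added.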
